A study of Mus musculus with 2 samples.

Results

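The genes Rspo1, Rspo2, Rspo3 and Lgr5 were chosen by name, with earlier results of these data known. They are 4 of the 15944 genes listed for both stages of a single-cell survey of the mouse mandibular prominence. The lower jaw and much of the tongue develop from this embryonic outgrowth. Wild-type CD1 embryos were sampled at embryonic day 13.5 (E13.5), when tongue and skeletal elements were developing, and at embryonic day 11.5 (E11.5), when the tongue bud was present. Droplet-based 10x libraries were made from whole dissociated tissue, 1 per stage, with protease at 5 mg/ml for E13.5 and 3 mg/ml for E11.5. How many embryos were pooled, and their sexes and litters, the labels do not say.

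R-spondins are secreted proteins that strengthen WNT signalling. They bind the receptors LGR4, LGR5 and LGR6 and the membrane ubiquitin ligases ZNRF3 and RNF43, which otherwise remove Frizzled WNT receptors from the cell surface, so that with an R-spondin bound more Frizzled stays at the surface. Lgr5 is best known as a marker of stem cells in the adult intestine and hair follicle, and in the mouse Rspo2 is required for normal limb and craniofacial development.

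The E13.5 library held 6318 cells in 22 deposited clusters, with a median of 9280 unique molecular identifiers (UMIs, 1 per captured transcript) per cell, and the E11.5 library held 7099 cells in 18 clusters, with a median of 6231. Clusters were grouped into broad classes by the authors' lineage names, with exceptions. E11.5 clusters 14 (skeletal muscle) and 17 (glia) were placed by their marker genes, and E13.5 cluster 20, named mast cells, was classed as macrophages. Of the marker genes, 45 of 45 at E13.5 and 38 of 39 at E11.5 were highest in the class they mark. For E11.5 skeletal muscle (7 markers) and glia (5 markers) this check is not independent of the grouping. Levels are UMIs of a gene per 1000000 UMIs (CPM) over all cells of a cluster or class. Each is given with a 95% interval for counting error. That interval treats UMIs as independent, so it leaves out the variation between cells and between embryos and may be too narrow. Because each stage was 1 library, no test and no p-value is given. Stage cannot be told apart from library, from protease concentration or from the sexes of the pooled embryos, since Xist, the X-inactivation transcript made in females, was at 499 CPM in E13.5 mesenchyme and 0.0536 CPM in E11.5 mesenchyme. The libraries shared 71 cell barcodes. CPM is not corrected for transcript length or for the part of each transcript captured, so patterns and not levels are compared between genes.

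In the GENCODE M21 annotation of GRCm38 (mm10), matched by symbol, Rspo1 lies on the plus strand at chr4:124986430-125009099 and Rspo2 on the minus strand at chr15:43020794-43170826. Rspo3 at chr10:29452416-29535867 and Lgr5 at chr10:115450311-115587780 are on the minus strand of the same chromosome. All 4 are protein-coding, and 0 annotated genes on the same strand overlap their exons.

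Most UMIs of all 4 genes came from the mesenchyme, which held 50.6% of all UMIs at E13.5 and 74.7% at E11.5. Mesenchyme held 93.6% of all Rspo1 UMIs at E13.5 and 91.4% at E11.5. For Rspo2 the share was 98.2% at E13.5 and 94.8% at E11.5, and for Rspo3 it was 96.1% at E13.5 and 96.3% at E11.5. Of the Lgr5 UMIs, 71.2% came from mesenchyme at E13.5 and 89.1% at E11.5. Skeletal muscle gave 15.9% of the Lgr5 UMIs at E13.5 and 3.49% at E11.5, beside 21.6% of all UMIs at E13.5 and 3.66% at E11.5. Epithelium gave 10.3% at E13.5 and 4.80% at E11.5, beside 15.6% and 5.95% of all UMIs, so the Lgr5 shares of both classes were below their shares of all UMIs at both stages. Erythroid cells, which should lack all 4 transcripts, give the level of free RNA. Their CPM was 0.558 at E13.5 and 1.96 at E11.5 for Rspo1, 0 (0 UMIs, for which a limit of 3 UMIs gives 0.837) and 4.58 for Rspo2, 1.67 and 3.60 for Rspo3, and 0.837 and 0.654 for Lgr5. In CPM, every member lay above that level in mesenchyme at both stages, by at least 5.08-fold at E11.5. Erythroid cells were deeper, with a median of 13137 UMIs at E11.5 against 5895 in mesenchyme, so their CPM may understate free RNA in mesenchyme. At E11.5, without thinning, 5.32% of mesenchyme and 2.63% of erythroid cells had an Rspo1 UMI. The shares were 15.3% and 5.48% for Rspo2, 11.7% and 4.61% for Rspo3, and 2.97% and 0.877% for Lgr5.

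The mesenchyme at E13.5 held 3905 cells and at E11.5 it held 5899. In it 3 members were higher at the later stage and 1 was lower. Rspo1 was at 37.4 CPM at E13.5 and 9.97 CPM at E11.5, a ratio of 3.75 (3.33 to 4.21). Rspo3 was at 61.3 CPM at E13.5 and 26.5 CPM at E11.5, a ratio of 2.31 (2.14 to 2.49). The receptor gene Lgr5 was at 11.9 CPM at E13.5 and 5.47 CPM at E11.5, a ratio of 2.17 (1.83 to 2.58). Rspo2 went against the other members, at 8.13 CPM at E13.5 and 29.3 CPM at E11.5, a 3.60-fold lower level (3.15 to 4.12). Here and below, a gene is called higher or lower when its ratio of E13.5 over E11.5 is at least 1.5-fold and its interval excludes 1, with at least 20 UMIs over both libraries. This is a rule of size. By the same rule 27.0% of the 14139 genes measured in mesenchyme were higher and 12.2% lower, so 3 of 4 higher is above that share. The 4 genes are few and were chosen with earlier results of these data known, so this comparison cannot show an excess.

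The fraction of positive mesenchyme cells moved the same way once every cell was thinned to 2000 UMIs to remove the difference in depth. Rspo1 was seen in 6.48% of thinned cells at E13.5 and 2.27% at E11.5, and Rspo3 in 9.62% at E13.5 and 4.87% at E11.5. Lgr5 was seen in 2.27% at E13.5 and 1.03% at E11.5, and Rspo2 in 1.91% at E13.5 and 5.85% at E11.5. In erythroid cells, with median depths of 18517 UMIs at E13.5 and 13137 at E11.5, the thinned shares were 0.485% at E13.5 and 0.219% at E11.5 for Rspo1, 0% and 1.10% for both Rspo2 and Rspo3, and 0% at both stages for Lgr5. Cells with several UMIs were most frequent for Rspo3 at E13.5: of 1032 mesenchyme cells with an Rspo3 UMI, 252 had 3 or more, and the highest had 26. For Rspo2 that held for 12 of 223 cells at E13.5 and 27 of 904 at E11.5, and most positive cells had 1 UMI (189 at E13.5 and 749 at E11.5).

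**Figure D1:**
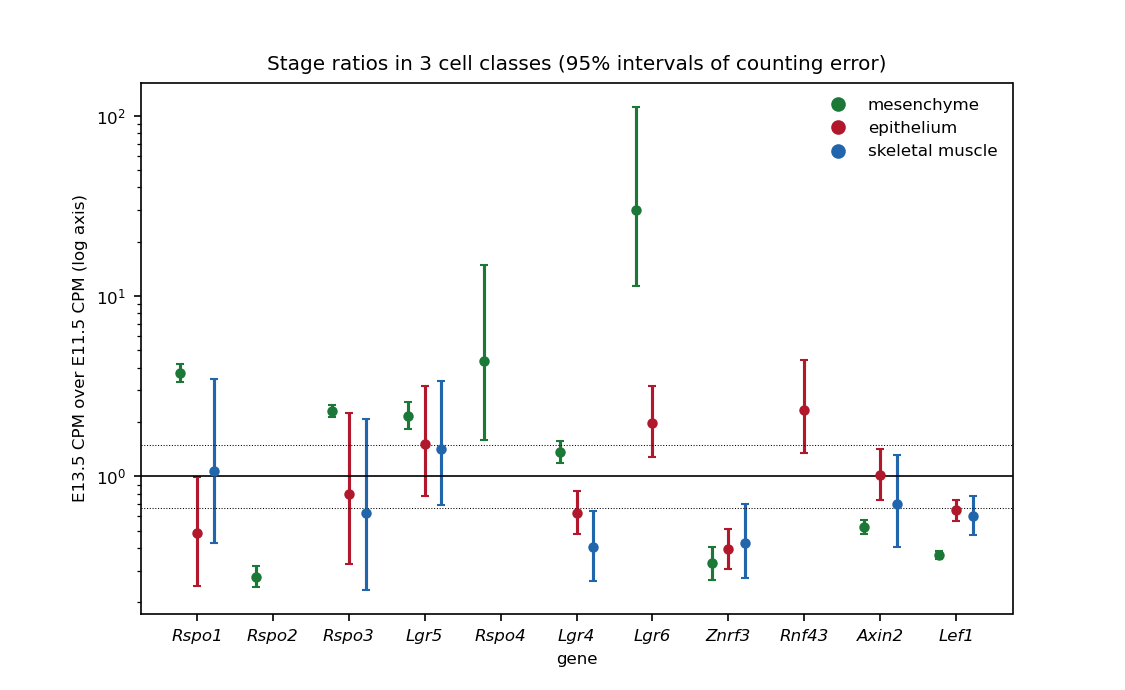
The ratio of the E13.5 level over the E11.5 level (log axis) is drawn for each member and for other genes of the pathway with at least 20 UMIs, by cell class, with 95% intervals of counting error; dotted lines mark 1.5-fold. In mesenchyme Rspo1, Rspo3 and Lgr5 lie above 1 and Rspo2, Znrf3, Axin2 and Lef1 below it.

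The mesenchymal clusters split the family differently at the 2 stages. Clusters are described by the genes with the highest fold over the other cells of their class, a description chosen after the values were seen. Rspo1 was highest in E13.5 cluster 11 (led by Tfap2b, Foxq1 and Fst), at 142.9 CPM (128.0 to 159.0). Clusters 14 (led by Dpt, Dmrt2 and Cbln2) and 2 (led by Stmn2, the agouti gene a and Pax1) followed at 59.8 CPM and 55.3 CPM. Cluster 21 had 59.6 CPM (25.8 to 117.5) on 8 UMIs and could not be placed. Cluster 11 exceeded cluster 14 by 2.39-fold (1.91 to 3.01), while clusters 14 and 2 could not be separated. The authors' osteogenic progenitors, cluster 5, led by the bone genes Ibsp and Ifitm5, had 37.7 CPM, and the lowest cluster, 0, had 6.04 CPM. At E11.5 the range was narrower. There Rspo1 was at 25.9 CPM in cluster 6 (led by Igf1, Rspo3 and Pax1) and 21.02 CPM in cluster 4 (led by Hand1, Rgcc and AW551984), which did not differ beyond counting error (ratio 1.23, 0.87 to 1.74), and the lowest cluster, 2, had 2.39 CPM.

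Rspo3, like Rspo1, was high in E13.5 clusters 11 and 2 and in E11.5 cluster 6. At E13.5 it was at 169.2 CPM in cluster 11, 120.8 CPM in cluster 2, 82.8 CPM in cluster 10 and 75.8 CPM in cluster 0, down to 6.29 CPM in cluster 6 (led by Aldh1a3, Meox1 and Thbs4). Cluster 21 was level with cluster 11 at 171.5 CPM, but on 23 UMIs from 72 cells with a median depth of 1833 UMIs, and its interval ran from 108.7 to 257.3 CPM. Cluster 11 exceeded cluster 2 by 1.40-fold (1.23 to 1.60), and clusters 10 and 0 did not differ beyond counting error. The patterns differed in cluster 0, which had the lowest Rspo1 level of the mesenchyme and an Rspo3 level above 6 other mesenchyme clusters. At E11.5 Rspo3 stood out in cluster 6, at 129.6 CPM, 3.51-fold (2.72 to 4.57) above the next cluster, 8, at 36.9 CPM. Clusters 8, 7 and 3 lay between 33.4 and 36.9 CPM and could not be separated.

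Rspo2 had a different map. At E13.5 it was highest in cluster 12 (led by Smoc2, Prdm6 and Phactr1), at 32.7 CPM (24.7 to 42.3), and then in clusters 3 (led by Barx1, Foxp2 and Nefl), 14 and 0, at 17.04, 16.5 and 13.4 CPM, which could not be separated. In cluster 11, where Rspo1 peaked, Rspo2 had 1 UMI among 279 cells, or 0.424 CPM. At E11.5 Rspo2 was widespread. It was highest in cluster 10, led by the cartilage genes Sox9 and Col2a1, at 64.3 CPM, followed by cluster 5 (led by Igfbp5, Barx1 and Ebf1) at 52.4 CPM, and 6 of the 11 mesenchyme clusters had more than 25 CPM. Its lowest E11.5 levels were 8.78 CPM in cluster 6, the Rspo3 peak, and 8.35 CPM in cluster 7 (led by Tbx18, Osr2 and Shox2).

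Lgr5 at E13.5 was highest in cluster 3, at 35.7 CPM (29.9 to 42.3), then in cluster 14 at 24.5 CPM, cluster 12 at 19.5 CPM and the osteogenic progenitors of cluster 5 at 14.7 CPM. Cluster 21 had 29.8 CPM on 4 UMIs and could not be placed. Cluster 3 exceeded cluster 14 by 1.46-fold (1.03 to 2.11), and clusters 14, 12 and 5 did not differ from their neighbours in that order beyond counting error. The Rspo1 and Rspo3 peak, cluster 11, had 2.12 CPM of Lgr5, and cluster 6 had 1.89 CPM. At E11.5 Lgr5 had no distinct peak: cluster 0 had 9.22 CPM, and clusters 2, 1, 3, 7 and 16 followed between 6.80 and 5.08 CPM without a difference from their neighbours beyond counting error.

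**Figure D2:**
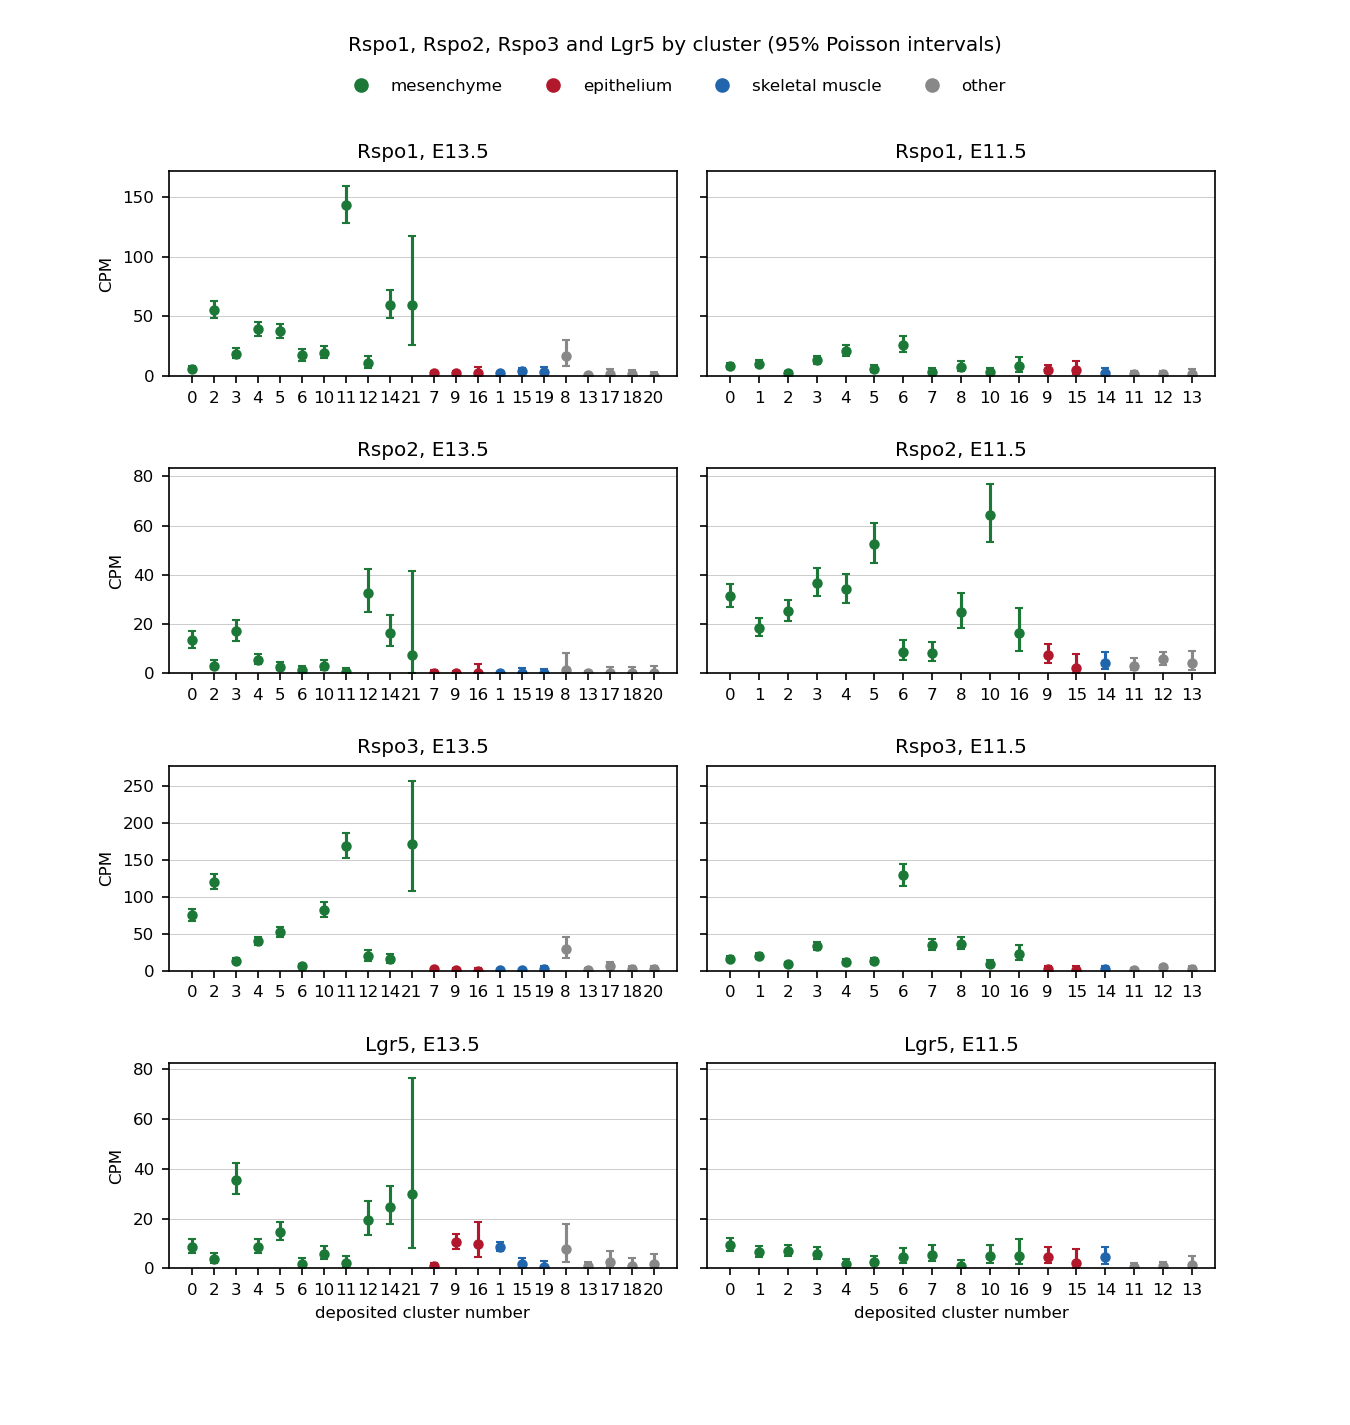
Levels (CPM) of the 4 genes are drawn for every deposited cluster of at least 50 cells, at E13.5 in the left column and at E11.5 in the right, on the same axis for each gene, with 95% Poisson intervals and colours for the cell class. Rspo1 and Rspo3 are high in E13.5 cluster 11, Rspo2 and Lgr5 in E13.5 clusters 3, 12 and 14, and Rspo3 stands alone in E11.5 cluster 6.

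How far a gene was confined to a cluster was described by its level in the highest mesenchyme cluster over the rest of the mesenchyme. At E13.5 that ratio reached 3-fold for Rspo1 (4.83), Rspo2 (4.79) and Lgr5 (3.99) and not for Rspo3 (2.82), against 17.6% of the 11991 genes with at least 50 mesenchyme UMIs. Without the shallow cluster 21 it reached 3-fold for Rspo3 too (cluster 11, 3.20), so that 4 of 4 members passed against 10.2% of genes. At E11.5 only Rspo3 passed (6.65), against 4.43% of 11336 genes, with Rspo1 at 2.92, Rspo2 at 2.34 and Lgr5 at 1.92.

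Across the mesenchyme clusters of a library, which share 1 library and differ in depth, correlations of log2(CPM + 1) describe how the patterns align (n = 11 clusters per stage). Rspo2 and Lgr5 ran together at E13.5 (r = 0.79) and not at E11.5 (r = -0.17). Without cluster 21 the E13.5 value was 0.83 over 10 clusters. At E11.5 the mesenchyme clusters had only 2 to 52 Lgr5 UMIs each, so counting error may hide a shared pattern there. Rspo1 and Rspo3 had r = 0.44 at E13.5 and 0.56 at E11.5. Rspo2 and Rspo3 had r = -0.34 at E13.5 and -0.72 at E11.5. Axin2, a direct target of beta-catenin that is widely used as a readout of WNT signalling, followed Rspo3 at both stages, with r = 0.79 at E13.5 and 0.70 at E11.5. With Rspo2 its r was -0.01 at E13.5 and -0.67 at E11.5. Axin2 was at 36.0 CPM in E13.5 cluster 11 and 48.8 CPM in E13.5 cluster 2, and at 67.3 CPM in E11.5 cluster 6. In E13.5 cluster 3, where Lgr5 was highest, Axin2 was at 14.9 CPM.

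**Figure D3:**
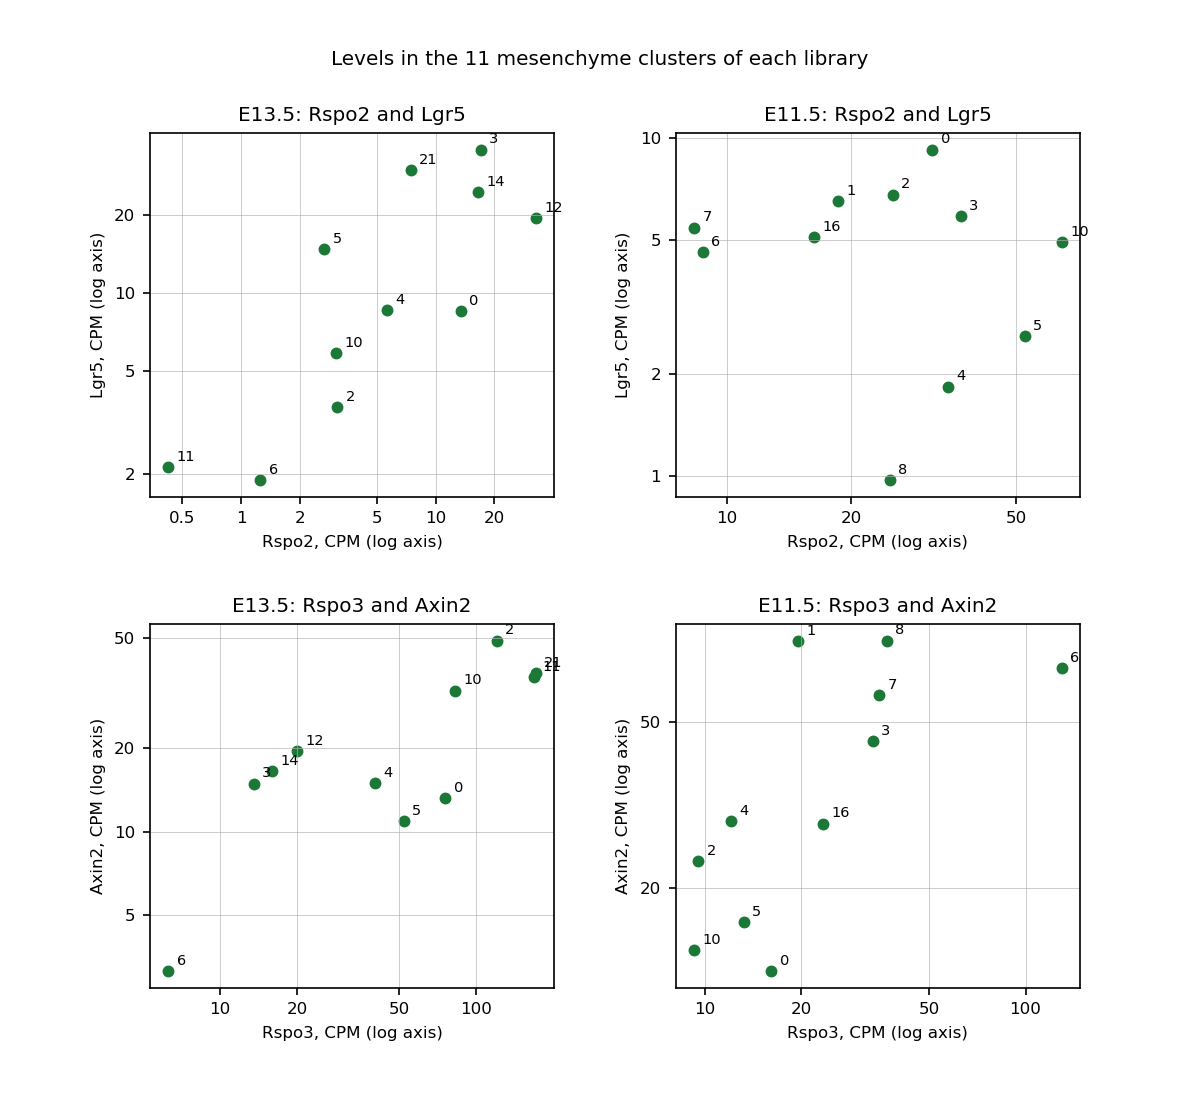
Each point is a mesenchyme cluster, labelled by its deposited number, at its CPM level of 2 genes (log axes), with E13.5 on the left and E11.5 on the right. Rspo2 and Lgr5 run together at E13.5 (r = 0.79) and not at E11.5 (r = -0.17), where Lgr5 counts are low. Rspo3 and Axin2 run together at both stages.

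Within clusters, most pairs of genes showed no departure from their separate shares that these counts could resolve. Among 3826 thinned E13.5 mesenchyme cells, 38 had UMIs of both Rspo1 and Rspo3, beside 33.3 given by the product of the 2 shares within each cluster. Rspo2 and Lgr5 were found together in 2 cells, beside 2.62 from the product. Over both stages 36 pairs were examined: the members with each other, and each member with Lgr4, Axin2 and Lef1. The product lay outside the interval of the observed share for only 2. Among 36 intervals a few can miss the product by counting error alone. No correction for the number of pairs was made, so these 2 are given as descriptions only. Rspo3 and Lef1, a transcription factor of WNT signalling, were found together in 70 E13.5 cells (1.83%, 1.43% to 2.31%), beside 46.6 from the product. Lgr5 and Axin2 were found together in 9 of 5899 E11.5 cells, beside 3.98. Without thinning, 323 of 3905 E13.5 mesenchyme cells and 173 of 5899 E11.5 mesenchyme cells held UMIs of at least 2 of the 3 R-spondins.

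Rspo2 and Lgr5 differed between the deposited cell cycle phases at E13.5. At E13.5 the mesenchyme level of Rspo2 was 12.1 CPM in cells called G1, 4.48 CPM in S and 4.14 CPM in G2M, so that S was 2.70-fold and G2M 2.92-fold below G1, with intervals that exclude 1. At E11.5 the Rspo2 levels were closer, at 35.1, 28.8 and 26.4 CPM, with S 1.22-fold and G2M 1.33-fold below G1 and intervals that exclude 1. The same order held inside 3 of the 4 E13.5 clusters with the most Rspo2. G1 cells exceeded the other cells by 3.60-fold (1.17 to 18.02) in cluster 12, by 1.93-fold (1.04 to 3.87) in cluster 3 and by 3.55-fold (1.16 to 17.7) in cluster 0, on 3 UMIs outside G1 in clusters 12 and 0, while in cluster 14 the ratio was 0.95 (0.38 to 2.85). Lgr5 at E13.5 was at 14.3, 11.9 and 7.13 CPM in G1, S and G2M, with G2M 2.001-fold below G1. That order did not hold inside its highest cluster. In cluster 3 the G1 level of Lgr5 over that of the other cells was 0.69 (0.48 to 0.98), while the ratio was 3.31 (1.05 to 16.7) in cluster 14, with 3 UMIs outside G1, and 1.71 (1.01 to 2.95) in cluster 5. In clusters 0, 2 and 12 its interval included 1. Over the whole E13.5 mesenchyme Rspo1 and Rspo3 lay within 1.09-fold of their G1 level in S and G2M, but single clusters differed in both directions. For Rspo1 the ratio of G1 over the other cells was 2.36 (1.73 to 3.29) in cluster 2, 2.02 (1.45 to 2.84) in cluster 5, 2.12 (1.13 to 4.39) in cluster 14 and 0.76 (0.61 to 0.95) in cluster 11. For Rspo3 it was 1.42 (1.18 to 1.73) in cluster 2, 0.33 (0.15 to 0.77) in cluster 14 and, on 3 UMIs outside G1, 4.34 (1.26 to 23.1) in cluster 6. Clusters 4 and 10, led by replication genes, had 0% of cells in G1, so over the whole mesenchyme phase is partly cluster. In E11.5 mesenchyme Rspo1 was 1.48-fold lower in S and 1.43-fold lower in G2M than in G1. Rspo3 was 1.44-fold lower in G2M, again with intervals that exclude 1, while those of Lgr5 included 1. In E11.5 cluster 6 the ratio of G1 over the other cells was 0.45 (0.36 to 0.57) for Rspo3 and 3.27 (1.68 to 6.95) for Rspo1. Cells called G1 were 57.0% of the mesenchyme at E13.5 and 31.7% at E11.5. In those cells alone the ratios of E13.5 over E11.5 were 2.99 for Rspo1, 1.95 for Rspo3, 3.03 for Lgr5 and 0.344 for Rspo2, on the same side of the rule.

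**Figure D4:**
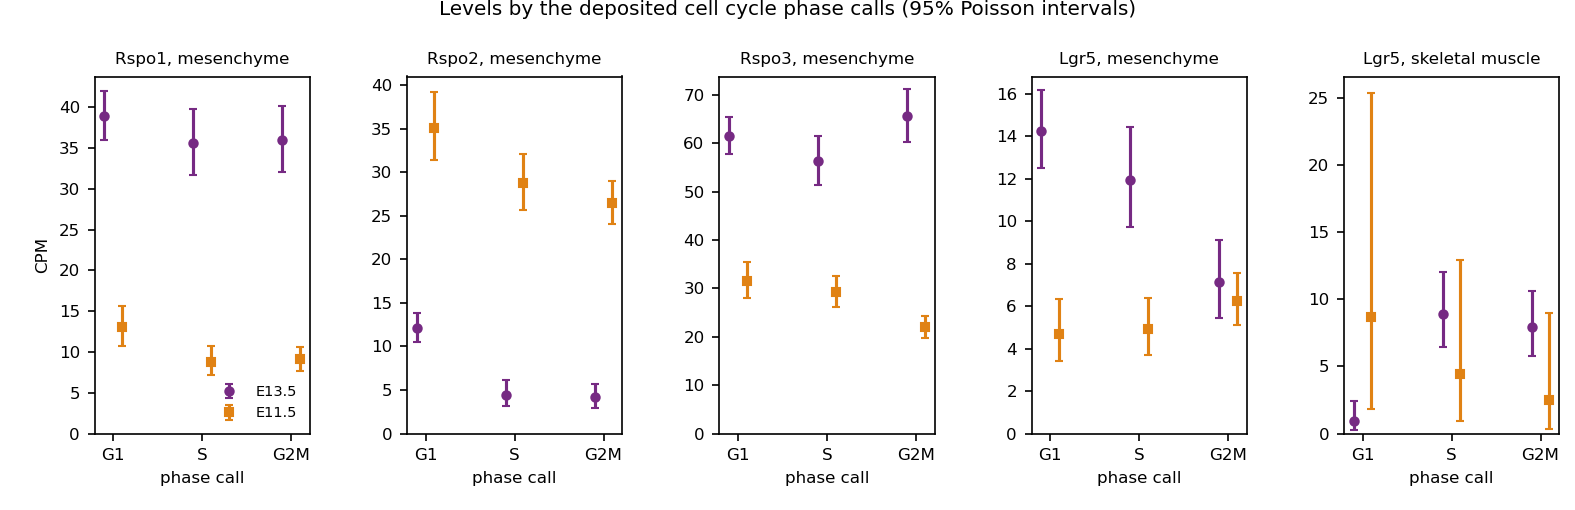
Levels (CPM) in cells called G1, S and G2M are drawn with 95% Poisson intervals for the 4 genes in mesenchyme and for Lgr5 in skeletal muscle; circles are E13.5 and squares E11.5. At E13.5 Rspo2 in mesenchyme is highest in G1, and Lgr5 in muscle is lowest in G1.

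Lgr5 outside the mesenchyme was tied to particular clusters. In E13.5 epithelium (838 cells) it was at 10.4 CPM in cluster 9 (led by Dapl1, Sox2 and Pitx1) and 9.78 CPM in cluster 16 (led by Krtdap, Ly6d and Cldn3), against 0.759 CPM in cluster 7 (led by Cxcl14, Gjb6 and Lmo1). Cluster 9 exceeded cluster 7 by 13.7-fold (5.00 to 52.4) and cluster 16 exceeded it by 12.9-fold (3.59 to 57.2). Cluster 16 rests on 9 Lgr5 UMIs and has a median depth of 3061 UMIs. The proportions of the members in cluster 9 differed from those of the mesenchyme as a whole. Cluster 9 had 46 UMIs of Lgr5, 10 of Rspo1 and 7 of Rspo3, while E13.5 mesenchyme had 407 of Lgr5, 1281 of Rspo1 and 2102 of Rspo3. Mesenchyme clusters varied, and cluster 3 had 134 of Lgr5, 71 of Rspo1 and 51 of Rspo3. Whether epithelial Lgr5 UMIs came from mesenchyme was not tested. Over the whole epithelium Lgr5 was at 5.56 CPM at E13.5 and 3.71 CPM at E11.5, and the interval of the ratio, 1.50, ran from 0.78 to 3.17.

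The other receptors and the ligases had an epithelial side as well. Lgr6 was highest in the epithelial cluster where Lgr5 was near background, at 23.9 CPM in E13.5 cluster 7, 3.53-fold (2.35 to 5.44) above cluster 9. Cluster 16 had both receptors, with Lgr6 at 14.1 CPM, and its Lgr6 level was not separated from that of cluster 7 (cluster 7 over cluster 16, 1.69, 0.96 to 3.27). Epithelium held 57.7% of all Lgr6 UMIs at E13.5 and 82.8% at E11.5, and 82.98% of all Rnf43 UMIs at E13.5 and 73.7% at E11.5, beside its 15.6% of all UMIs at E13.5 and 5.95% at E11.5. Lgr4 was found in all 3 E13.5 epithelial clusters, between 14.9 and 26.1 CPM. In E13.5 epithelium relative to E11.5, Lgr6 was 1.97-fold (1.28 to 3.16) higher, at 15.9 CPM at E13.5 and 8.09 CPM at E11.5, and Rnf43 was 2.34-fold (1.34 to 4.41) higher, at 11.03 CPM at E13.5 and 4.72 CPM at E11.5. Lgr4 was 1.59-fold lower and Znrf3 2.53-fold lower.

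Among the members, the epithelium gave 1 call. Rspo1 was at 2.45 CPM at E13.5 and 5.05 CPM at E11.5, 2.06-fold lower (1.02 to 4.04), on 26 UMIs at E13.5 and 15 at E11.5. A single cell held 6 of the 26. Erythroid Rspo1 was lower at E13.5 too (0.558 CPM, against 1.96 CPM at E11.5), and its part in the call was not tested. The call was lost under 7 alternatives. Rspo3 and Lgr5 met neither direction, and Rspo2 had 2 UMIs at E13.5 and 17 at E11.5, too few for the rule. In epithelium 9.33% of 11677 genes were higher and 14.2% lower by the same rule. Of 17 measured beta-catenin response genes there, 4 were higher and 5 lower, with Lef1 1.55-fold lower and Axin2, at 17.2 CPM at E13.5 and 16.8 CPM at E11.5, in neither direction.

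**Figure D5:**
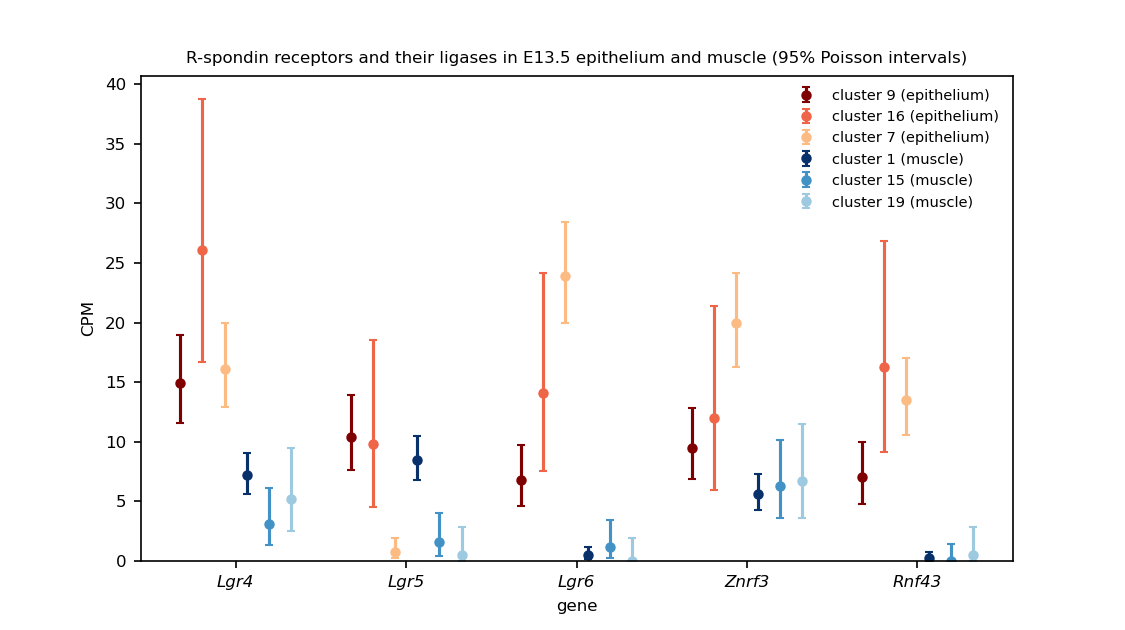
Levels (CPM) of the 3 R-spondin receptors and of the ligases Znrf3 and Rnf43 are drawn for the E13.5 epithelial and muscle clusters with 95% Poisson intervals. Lgr5 is high in clusters 9, 16 and 1, and Lgr6 is highest in cluster 7.

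In E13.5 skeletal muscle (752 cells) Lgr5 marked cluster 1, led by Msc, a repressor of muscle differentiation genes, together with Nefl and the replication histone Hist1h2ap. It had 8.46 CPM there, against 1.56 CPM in cluster 15 (led by Gm7325, Vgll2 and Spg21, and Myog, the gene of the muscle differentiation factor myogenin, among its next genes) and 0.515 CPM in cluster 19 (led by the contractile genes Mybph and Tnnc2). Cluster 1 exceeded cluster 15 by 5.43-fold (2.05 to 20.4) and cluster 19 by 16.4-fold (2.87 to 656). Here too the UMIs differed in proportion from the mesenchyme as a whole, with 86 of Lgr5, 26 of Rspo1, 18 of Rspo3 and 1 of Rspo2 in cluster 1. A mesenchymal source of these UMIs was not tested. By phase, muscle Lgr5 was at 0.939 CPM in G1, 8.90 CPM in S and 7.91 CPM in G2M. Cells called G1 were 3.54% of cluster 1, 84.0% of cluster 15 and 100% of cluster 19, so cluster and phase cannot be told apart. Muscle at E11.5 was 1 cluster of 151 cells with 8 Lgr5 UMIs. The class level was 6.20 CPM at E13.5 and 4.38 CPM at E11.5, a ratio of 1.42 (0.69 to 3.38), and 0 of the 3 measured members were called, beside 9.38% of 11428 genes higher and 13.7% lower.

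Other genes that act with R-spondins also differed between the stages in mesenchyme. Of the 8 in the list beyond the members (Rspo4, Lgr4, Lgr6, Znrf3, Rnf43 and the co-receptor or surface proteoglycan genes Sdc4, Gpc3 and Gpc4), 7 had enough UMIs, 4 were higher at E13.5 and 1 was lower. The median of their log2 ratios was 1.05, beside 0.14 over all measured genes, of which 27.0% were higher and 12.2% lower. Lgr6 was at 3.21 CPM at E13.5 and 0.107 CPM at E11.5, a ratio of 29.9 (11.4 to 112) that rests on 110 and 4 UMIs. Gpc4 was at 31.1 CPM at E13.5 and 7.13 CPM at E11.5, and Gpc3, a glypican on the cell surface, at 761 CPM at E13.5 and 368 CPM at E11.5. Rspo4, the fourth R-spondin, was higher on 20 UMIs at E13.5 and 5 at E11.5. Znrf3, the ligase that R-spondins counteract, was 3.02-fold lower (2.45 to 3.74), at 3.47 CPM at E13.5 and 10.48 CPM at E11.5. Lgr4, another R-spondin receptor, met neither direction, at 14.2 CPM at E13.5 and 10.4 CPM at E11.5.

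Among WNT ligand genes in mesenchyme, 11 of the 19 in the list were measured, and the median of the log2 ratios was 0.90. Of these, 7 were higher at E13.5 and 0 lower, beside 27.0% higher and 12.2% lower over all measured genes. Wnt5a, a ligand of the non-canonical branch, was at 133 CPM at E13.5 and 42.0 CPM at E11.5. Wnt16 was at 5.83 CPM at E13.5 and 0.349 CPM at E11.5, and Wnt11 at 9.39 CPM at E13.5 and 1.15 CPM at E11.5. The others were Wnt2, Wnt4, Wnt6 and Wnt10a, each 1.54 to 2.04-fold higher. Of the 17 receptor and co-receptor genes, 5 were higher (Fzd4, Fzd5, Fzd8, Fzd9 and Ryk) and 1, Fzd1, was 1.85-fold lower, with a median of 0.31. That count of higher receptors is near the 27.0% of all measured genes.

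Genes that respond to beta-catenin went both ways. Of 16 measured among 18 in the list, E13.5 was higher for 3 and lower for 6, and the median of the log2 ratios was -0.10. Over all genes measured in mesenchyme, 27.0% were higher and 12.2% lower, so the share of lower genes was above that of all genes. The list was chosen with earlier results of these data known, so this cannot show an excess. Axin2 was 1.92-fold lower (1.75 to 2.10), at 20.7 CPM at E13.5 and 39.7 CPM at E11.5. Lef1 was 2.74-fold lower, at 53.0 CPM at E13.5 and 145 CPM at E11.5. Notum, Dkk1, Bambi and Znrf3 were the others that were lower. Sp5, a transcription factor gene induced by WNT, went the other way, at 34.3 CPM at E13.5 and 1.34 CPM at E11.5, and Wif1 and Lgr6 were higher too. Among 10 measured genes of secreted WNT inhibitors, which share Dkk1, Notum and Wif1 with that list, 6 were higher and 3 lower. This stands beside the same 27.0% and 12.2% of all measured genes, and the median of the inhibitors' log2 ratios was 1.01. Sostdc1 was at 231 CPM at E13.5 and 47.1 CPM at E11.5, Sfrp4 at 30.5 CPM at E13.5 and 0.268 CPM at E11.5, and Frzb at 26.4 CPM at E13.5 and 83.3 CPM at E11.5.

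The genes whose levels ran most like each member over the 39 clusters of at least 50 cells, among 11874 genes, are given with Pearson's r. For Rspo1 they were Col6a3, a collagen VI chain (r = 0.87), Ndnf (0.84) and Crabp1 (0.84). For Rspo2 they were Gm26523 (0.88), the mesenchymal transcription factor gene Prrx1 (0.85) and Mab21l2 (0.85). For Rspo3 they were Pth1r, the receptor for parathyroid hormone and its related protein (0.90), Twist1 (0.88) and Cped1 (0.88). For Lgr5 the likeness was lower, with Cyp7b1 (0.77), Pdgfrl (0.77) and the WNT inhibitor gene Sfrp2 (0.75). These values come from log2(CPM + 1), and since most clusters are mesenchyme or not, they partly repeat the class of each gene.

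Counts were also present in E13.5 cluster 8, which the authors left without a lineage and whose 304 cells had a median depth of 935.5 UMIs. It had 29.0 CPM of Rspo3, 16.8 CPM of Rspo1 and 7.63 CPM of Lgr5, on 19, 11 and 5 UMIs, and entered no class.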

How the data were processed

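Single-cell UMI counts of 2 libraries, 1 per stage, were used as the authors deposited them, as whole-number counts per gene and cell, with the deposited cluster, lineage and phase of each cell. The mitochondrial share is a fraction in the deposited metadata. The submitters' processing notes name Cell Ranger 2.0.0, Seurat 2.3.4 and mm10. For cell filters and doublet removal, the sources used here give no step. The lowest UMI count of a cell is 500 at E13.5 and 2253 at E11.5, and the highest mitochondrial share 20.0% and 7.90%. Doublets were kept in the main values.

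Clusters were put in classes by the authors' lineage names. By their marker genes, E11.5 cluster 17 was placed with glia and E11.5 cluster 14 with skeletal muscle. UMIs were summed per cluster or class and divided by all UMIs to CPM, with exact Poisson intervals. Ratios have exact conditional binomial intervals and shares of cells exact Clopper-Pearson intervals. Thinning drew 2000 UMIs per cell without replacement and left out 421 cells at E13.5 and 0 at E11.5. The ratio and its interval were run on simulated Poisson counts drawn from the E11.5 mesenchyme means. Those counts hold no variation between cells or libraries, so this checks the calculation only. The thinning was checked on cells of the E11.5 library. Leading genes of a cluster had at least 50 CPM there and were ranked by fold over the rest of their class after adding 5 CPM. The 4 members were named throughout; of the 5 pathway lists all called genes may be named, and for each member the 3 genes with the highest correlation. The members and the lists were chosen with earlier results of these data known. No gene is tested against replicates, so nothing here measures variation between embryos. The software was numpy 2.4.6, scipy 1.17.1 and pandas 2.3.3 under Python 3.11.15, with matplotlib 3.10.9 for figures.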

Additional observations from a re-analysis of the deposited data

Results flagged for a closer look

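Rspo1 moved in opposite directions in 2 cell classes, with a ratio of E13.5 over E11.5 of 3.75 in mesenchyme and 0.485 in epithelium. The difference between the ratios was not tested. The epithelial value rests on 26 UMIs at E13.5 and 15 UMIs at E11.5. Its interval ran from 0.247 to 0.985, and its call was lost under several of the alternatives given below.

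In E13.5 cluster 8, which was left out of the comparisons between stages, 3 members had a higher CPM than in E13.5 erythroid cells. Rspo1 was at 16.8 CPM, Rspo3 at 29.0 CPM and Lgr5 at 7.63 CPM, while the erythroid levels were 0.558, 1.67 and 0.837 CPM.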

How the results depend on the processing

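Each of the 4 mesenchyme ratios kept its direction and stayed past 1.5-fold under all 11 alternatives that gave a value, and its interval excluded 1 in all but clusters with equal weight, which has no interval: size factors, another sum, equal cell limits, thinning, fewer deep cells, G1 cells only, clusters with equal weight, the highest cluster left out, and 3 chosen after the data were seen (no Xist UMI, no E13.5 cluster 21, no markers of another class other than erythroid). They ranged from 2.99 to 4.24 for Rspo1, 0.248 to 0.344 for Rspo2, 1.95 to 3.12 for Rspo3 and 1.86 to 3.03 for Lgr5. Leaving out every cell with markers of another class gave no value, because erythroid transcripts in other cells left 12 mesenchyme cells at E13.5 and 0 at E11.5.

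The lower epithelial Rspo1 (ratio 0.485) was no longer called with size factors (0.550), without haemoglobin, mitochondrial and ribosomal genes in the sum (0.526), after thinning (0.205), without the deepest 5% of cells (0.537), in G1 cells (0.233), without cells with markers of another class other than erythroid (0.324) and without the highest cluster (0.458). Several of these leave fewer UMIs; the cause was otherwise not tested. By the share of thinned cells the highest E13.5 cluster was 11 for Rspo3 and 14 for Lgr5.

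Shares of mesenchyme cells with a UMI follow depth. At E13.5, with 1000 UMIs per cell and without thinning, they were 3.22% and 18.1% for Rspo1, 0.901% and 5.71% for Rspo2, 5.61% and 26.4% for Rspo3, and 1.26% and 7.35% for Lgr5. At E11.5 they were 1.10% and 5.32% for Rspo1, 2.37% and 15.3% for Rspo2, 2.54% and 11.7% for Rspo3, and 0.492% and 2.97% for Lgr5. With a fold of at least 2, the receptor list had 3 higher and 0 lower, the ligand list 4 higher and the response list 3 lower, and with size factors the receptor list had 2 lower. No paired analysis was possible because there is 1 library per stage, and for the same reason no replicate could be left out.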
